A study of Mus musculus with 6 samples.

Results

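The subunits of the NMDA receptor were examined in RNA purified with tagged ribosomes from the cortex of mice without p11, where the tag is carried by cells that express S100a10, the gene of p11. The members were given by name as Grin1, Grin2a, Grin2b, Grin2c, Grin2d and Grin3a, and were taken as every probe set whose annotation gives 1 of these 6 symbols and no other. This found 11 of the 45037 probe sets that are not controls. They stand for 5 of the 6 genes. No probe set was named for Grin1 alone, and it was not analysed here. Only 5 probe sets, of 3 genes (Grin2b, Grin2d and Grin3a), had a mean intensity of 50 or more in at least 1 group and were tested.

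All mice carried the S100a10 bacTRAP transgene (line ES691), in which the S100a10 promoter on a bacterial artificial chromosome drives a tagged ribosomal protein, and all were constitutive p11 knockouts (p11 KO), with 3 to 5 generations of backcrossing of FVB animals to C57BL/6. Mice of the fluoxetine group (FLX, 3 arrays) drank fluoxetine, a selective serotonin reuptake inhibitor, at 0.167 mg/ml in 1% saccharin for 15 to 18 days. Mice of the vehicle group (VEH, 3 arrays) drank 1% saccharin without the drug over the same span. The comparison asks how the drug changes ribosome-bound mRNA in cells without p11. Per the labels, some labelled cells are not neurons, and no array of mice with p11 was analysed here. The labels call the replicates biological and independent, and do not state how many mice an array holds.

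NMDA receptors are glutamate-gated cation channels that pass calcium. They open when glutamate and a co-agonist, glycine or D-serine, are bound and depolarisation has lifted a magnesium block, and they are known for their part in synaptic plasticity. Each receptor holds the obligatory GluN1 subunit, encoded by Grin1, together with GluN2 subunits, which bind glutamate, or GluN3 subunits, which bind glycine. In adult cortex Grin2a and Grin2b are the main GluN2 genes of principal neurons, Grin2d is best known from interneurons, and Grin2c from cerebellar granule cells and astrocytes.

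Median intensities over all probe sets ran from 38.5 to 41.3 in FLX arrays and from 39.7 to 41.9 in VEH arrays. In both groups replicate 3 differed most from the other arrays, at correlations of 0.867 to 0.916 with the arrays of replicates 1 and 2, which correlated among themselves at 0.987 to 0.995. The lower quartile of intensity was 9.01 to 9.82 in FLX arrays. In VEH arrays it was 8.72 and 8.84 in replicates 1 and 2 and 11.4 in replicate 3. The brightest of 3 S100a10 probe sets had intensities of 349 to 2222 in FLX arrays and 643 to 3111 in VEH arrays. It is of a type that can match other transcripts, and where its probes lie relative to the deletion is not stated in the labels, so it checks nothing about the genotype. Marker genes of cell types were looked at in the same arrays. All 8 pan-neuronal markers were tested (detected), and their summed intensity was 113160 to 134829 in FLX arrays and 105565 to 126740 in VEH arrays. All 9 interneuron markers and 5 of 6 excitatory neuron markers were tested as well. So were 10 of 10 astrocyte, 8 of 8 microglia and 9 of 9 leptomeningeal markers, and 3 of 7 endothelial markers. Detection was thus not particular to neurons and does not check which cells were labelled. No marker tested was at 0, which checks nothing, since the lowest intensity of every array was above 0.

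No probe set of the 3 tested subunit genes (Grin2b, Grin2d and Grin3a) passed the test for a difference between FLX and VEH. With limma on log2 intensities and Benjamini-Hochberg adjustment over 22200 probe sets, 0 of the 5 subunit probe sets passed 0.05, against a background of 0% (0 of 22200). At an unadjusted p under 0.05 the counts were 0 of 5 subunit probe sets and 83 of 22200, which is 0.374%. That share is far under the 0.05 that would come up with no difference anywhere. The main fit leaves differences between replicate numbers in its spread and calls few probe sets. Its count of 0 therefore does not show that the subunits were unchanged. With the replicate number as a block in the limma fit, 0 of 5 had an adjusted p under 0.05 (0% of all probe sets) and 0 of 5 an unadjusted p under 0.05 (7.95%). The FLX and VEH values overlapped for all 5 probe sets, whereas 4.33% of the probe sets tested did not overlap, 2.55% with FLX above VEH and 1.79% with FLX below. The log2 difference was positive for 2 of 5, beside 57.2% of all probe sets tested. The largest difference was that of a Grin3a probe set (1.33-fold), and the other 4 lay between 0.846-fold and 1.14-fold, FLX over VEH.

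Grin2b, which encodes the glutamate-binding GluN2B subunit with its long cytoplasmic tail, had 2 probe sets above the filter and 2 below it. Probe set 1457003_at had intensities of 376, 473 and 294 in FLX replicates 1, 2 and 3, against 308, 361 and 528 in VEH replicates 1, 2 and 3. The VEH replicate 3 array was the highest of the 6 and the FLX replicate 3 array the lowest, and the groups overlapped. The means were 381 ± 89.5 in FLX and 399 ± 115 in VEH arrays (SD, n = 3 each). The log2 difference was -0.06 (SE 0.30, 95% interval -0.78 to 0.67), with a limma adjusted p of 1.00.

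The other tested Grin2b probe set, 1442370_at, had intensities of 193, 244 and 140 in FLX replicates 1, 2 and 3, against 148, 199 and 149 in VEH replicates 1, 2 and 3. Here the VEH replicate 3 array was at the level of VEH replicate 1, so the 2 probe sets did not share the high value. The log2 difference was 0.19 (SE 0.28, 95% interval -0.48 to 0.87; limma adjusted p = 1.00). Taken by replicate number, FLX minus VEH was 0.29, 0.39 and -0.84 on the log2 scale for 1457003_at. For 1442370_at it was 0.38, 0.29 and -0.09. Both probe sets were thus higher in FLX in replicates 1 and 2 and lower in FLX in replicate 3. With Grin2d 1442328_at, 3 of the 5 subunit probe sets had this order, beside 10.1% of all probe sets tested, and the 2 of Grin2b stand for 1 gene. Without both replicate 3 arrays, the difference was 0.34 for each, with limma adjusted p of 0.794 for 1457003_at and 0.798 for 1442370_at (n = 2 per group). The remaining Grin2b probe sets, 1422223_at and 1431700_at, were under the filter, with intensities of 10.9 to 18.3 and of 4.61 to 6.51 over the 6 arrays.

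**Figure D1:**
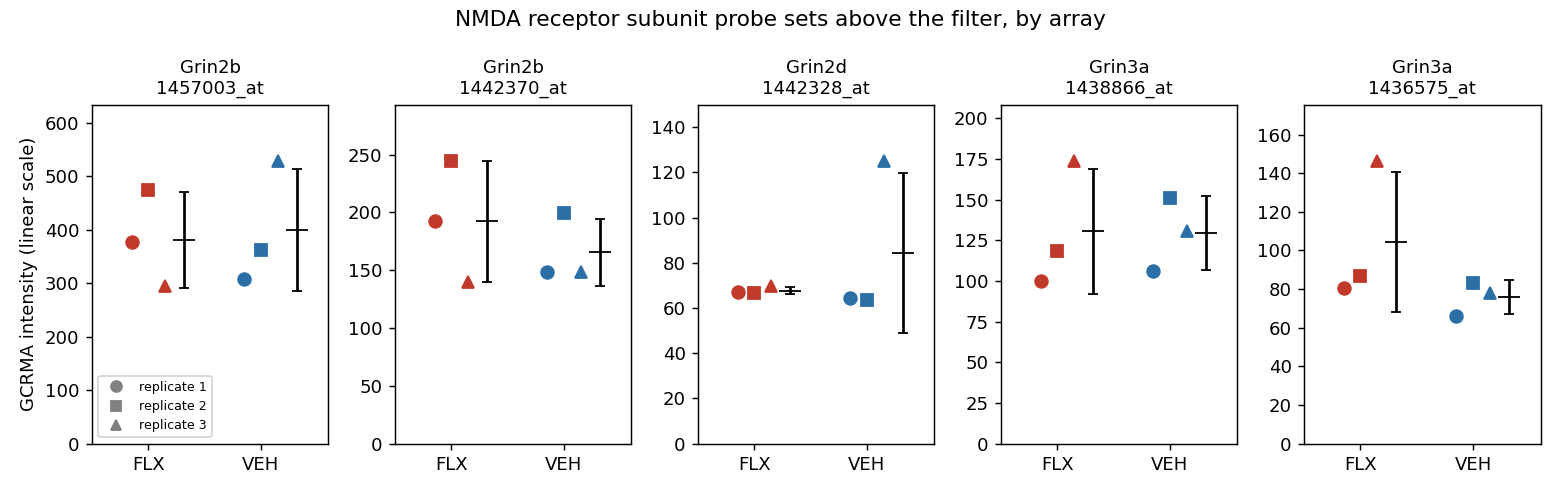
Intensity on a linear scale in each array for the 5 subunit probe sets above the filter, with FLX arrays (red) left of VEH arrays (blue). Marker shapes give the replicate number and black bars the mean ± SD of 3 arrays. The groups overlap in every panel. A replicate 3 array is the highest for Grin2b 1457003_at (VEH, 528), for Grin2d (VEH, 125) and for both Grin3a probe sets (FLX, 174 and 146).

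Grin2d, the gene of the GluN2D subunit, which forms slowly deactivating receptors, was flat in 5 of the 6 arrays. Probe set 1442328_at had intensities of 67.2, 66.4 and 69.6 in FLX replicates 1, 2 and 3, against 64.3, 63.8 and 125 in VEH replicates 1, 2 and 3. The VEH replicate 3 array alone was high, and the other 5 arrays lay within 63.8 to 69.6. The log2 difference was -0.24 (SE 0.31, 95% interval -0.998 to 0.52; limma adjusted p = 1.00). By replicate number it was 0.06, 0.06 and -0.84. When VEH replicate 3 was left out the difference was 0.08 (limma adjusted p = 0.849), so the direction came from that array. An intensity in VEH replicate 3 at 1.5 times or more the highest other array was seen for 1 of 5 subunit probe sets and for 3.64% of the 22200 tested. The second Grin2d probe set, 1421393_at, was close to the lowest values of the arrays, at 2.73 to 2.93.

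Grin3a encodes GluN3A, a glycine-binding subunit that lowers the calcium permeability of the receptors it joins. Its probe set 1436575_at had intensities of 80.5, 86.6 and 146 in FLX replicates 1, 2 and 3, against 66.0, 83.4 and 77.8 in VEH replicates 1, 2 and 3. The FLX replicate 3 array was the highest, and FLX replicate 1 lay between the VEH arrays. The means were 104 ± 36.3 in FLX and 75.8 ± 8.87 in VEH arrays (SD, n = 3 each). The log2 difference was 0.42 (SE 0.29, 95% interval -0.29 to 1.12), with a limma adjusted p of 1.00, or 0.640 with the replicate block. It was positive in all 3 replicate numbers, at 0.28, 0.05 and 0.91, as in 19.6% of the probe sets tested, while 13.6% were negative in all 3. An intensity in FLX replicate 3 at 1.5 times or more the highest other array was seen for this 1 of the 5 subunit probe sets and for 4.03% of all tested. Without the FLX replicate 3 array it was 0.15 (limma adjusted p = 0.999), which is less than the SE.

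The other tested Grin3a probe set, 1438866_at, had intensities of 99.8, 118 and 174 in FLX replicates 1, 2 and 3, against 106, 151 and 131 in VEH replicates 1, 2 and 3. Its means were 131 ± 38.4 in FLX and 129 ± 22.7 in VEH arrays (SD, n = 3 each), and the log2 difference was -0.01 (SE 0.28, 95% interval -0.70 to 0.68; limma adjusted p = 1.00). FLX was lower in replicates 1 and 2, by log2 differences of -0.09 and -0.35, and higher in replicate 3, by 0.41. The 2 probe sets of this gene therefore had the same order in replicate 3 and opposite orders in replicates 1 and 2. Without the FLX replicate 3 array, the difference of 1438866_at was -0.24. The third Grin3a probe set, 1458378_at, was under the filter at 11.7 to 17.4.

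Grin2a and Grin2c had no probe set above the filter. Grin2a, the gene of GluN2A, was represented by 1421616_at, with intensities of 5.38, 5.45 and 5.61 in FLX replicates 1, 2 and 3, against 5.22, 5.28 and 6.17 in VEH replicates 1, 2 and 3. These lay below the lower quartile of every array, and they set no level for the transcript. Grin2c, the gene of GluN2C, had intensities of 22.5, 32.01 and 43.5 in FLX replicates 1, 2 and 3, against 18.1, 32.9 and 46.6 in VEH replicates 1, 2 and 3. Both groups had the same order of arrays, with replicate 1 lowest and replicate 3 highest. The FLX and VEH values of Grin2c were closer within a replicate number, at log2 differences of 0.32, -0.04 and -0.10, than replicate 3 was to the mean of the other replicates, where it stood 0.70 higher in FLX arrays and 0.93 higher in VEH arrays. Grin3b, the gene of the other GluN3 subunit and not a member here, had 26.2, 25.4 and 26.5 in FLX replicates 1, 2 and 3, against 26.8, 25.1 and 37.6 in VEH replicates 1, 2 and 3. It was under the filter as well.

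The VEH replicate 3 array was the highest of the 6 for all 6 subunit probe sets under the filter. The same array was the highest for 67.2% of the 22837 probe sets under the filter, so the subunits' count stands beside a common property of that array at low intensity. Its part in the high values of Grin2d 1442328_at and Grin2b 1457003_at was not tested. After quantile normalization of the 6 arrays again, the log2 differences of the 5 tested probe sets moved by less than their SE.

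**Figure D2:**
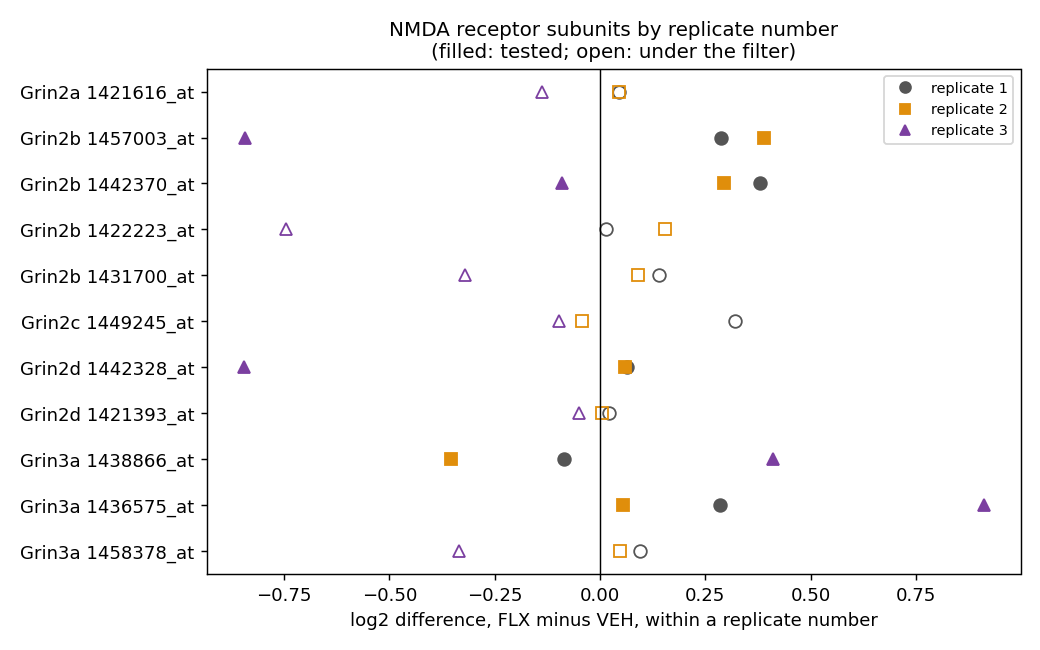
Log2 difference, FLX minus VEH, within replicates 1, 2 and 3 for the 11 subunit probe sets, with filled markers for tested probe sets and open ones for those under the filter. Replicate 3 lies left of 0 for all Grin2b and Grin2d probe sets, at -0.84 for 1457003_at and for 1442328_at, and right of 0 for the 2 tested Grin3a probe sets, at 0.41 and 0.91.

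Replicate 3 differed from the mean of the other replicates of its group by up to 0.97 on the log2 scale among the tested subunit probe sets. Between single FLX and VEH arrays of the same replicate number, the differences reached 0.91 in size. The differences between means of 3 arrays, which vary less than single arrays, were at most 0.42. For Grin2b 1457003_at, replicate 3 minus the mean of the other replicates was -0.52 in FLX and 0.66 in VEH arrays on the log2 scale, so the groups moved in opposite directions. For Grin2b 1442370_at both were negative, at -0.64 in FLX and -0.21 in VEH arrays. Grin2d 1442328_at was at 0.06 in FLX and 0.97 in VEH arrays. Grin3a had the reverse, with 0.81 in FLX and 0.07 in VEH arrays for 1436575_at, and 0.68 in FLX and 0.04 in VEH arrays for 1438866_at. These are single arrays set against pairs of arrays, and no test was made.

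Cell type markers moved with the replicate number too. In samples made from many cells, fewer cells of a type and less RNA per cell cannot be told apart. The summed intensity of 9 of 9 interneuron markers was 22965, 19752 and 45195 in FLX replicates 1, 2 and 3, against 16551, 20597 and 34879 in VEH replicates 1, 2 and 3. Gad1 makes up most of this sum. Taken gene by gene, replicate 3 was the highest array for 8 of the 9 in FLX and 6 of the 9 in VEH, and Slc32a1, the vesicular GABA transporter gene, was lowest there in VEH. Grin2d was high in VEH replicate 3 and not in FLX replicate 3. Astrocyte markers (10 of 10) summed to 25911, 41108 and 14429 in FLX replicates 1, 2 and 3, against 33671, 37537 and 10921 in VEH replicates 1, 2 and 3. Gja1 and Gjb6 carry most of the gap between replicate 3 and the other arrays. By gene, replicate 3 was the lowest array for 6 of 10 astrocyte markers in each group, while Gfap stood 2.06 higher there on the log2 scale in both groups, so the list had no shared order to set beside that of Grin2c. Oligodendrocyte markers (6 of 7 tested) summed to 66131 in FLX replicate 3 and 65096 in VEH replicate 3, against 24900 and 28033 in FLX replicates 1 and 2 and 24415 and 28159 in VEH replicates 1 and 2. Mbp and Cnp make up most of it, and replicate 3 was the highest array for 4 of the 6 in each group, while Mag and Cldn11 were lowest there. Leptomeningeal markers (9 of 9) ran the other way, at 3392 in FLX replicate 3 and 6372 in VEH replicate 3, and between 42610 and 68507 in the other 4 arrays, with replicate 3 lowest for 9 of 9 in each group. The part of these cells in the subunits' values was not tested. As a sign of RNA quality, the log2 intensity of the 3′ control probe sets for Gapdh and Actb minus that of the 5′ ones averaged 2.08 to 2.20 in FLX arrays and 2.18 to 2.33 in VEH arrays. The average hides a difference between the 2 genes in replicate 3. Gapdh was at 1.83 in both replicate 3 arrays and at 1.99 to 2.32 in the others. Actb was at 2.56 in VEH replicate 3, above all others. In FLX replicate 3 it was at 2.32, within the 2.18 to 2.34 of replicates 1 and 2.

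**Figure D3:**
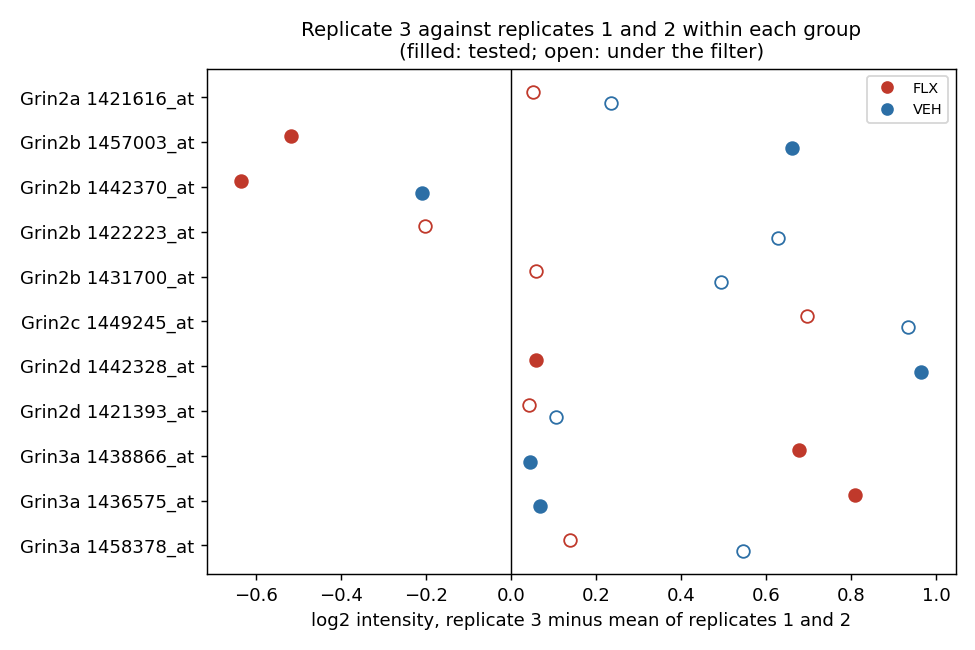
Log2 intensity of replicate 3 minus the mean of replicates 1 and 2 for the 11 subunit probe sets, in FLX (red) and VEH (blue) arrays. Grin2b 1457003_at lies at -0.52 in FLX and 0.66 in VEH arrays, and both tested Grin3a probe sets lie near 0 in VEH arrays and above 0.6 in FLX arrays.

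The balance between subunits was compared within each array, since a ratio of 2 probe sets in the same array is free of scaling between arrays. It shows unequal change and not relative abundance. The ratios to Grin1 and of Grin2a to Grin2b could not be had, so Grin2d and Grin3a were set against Grin2b 1457003_at, a choice made after the values were seen. The log2 ratio of Grin2d to Grin2b differed by -0.19 between FLX and VEH, with differences of -0.22, -0.33 and -0.0025 in replicates 1, 2 and 3. The ratio of Grin3a 1438866_at to Grin2b differed by 0.05, with -0.37, -0.74 and 1.254 in replicates 1, 2 and 3. For Grin3a 1436575_at the difference was 0.47, with -0.0021, -0.34 and 1.75. The ratios of both Grin3a probe sets were lower in FLX in replicates 1 and 2 and higher in FLX in replicate 3. Both are set against the same Grin2b probe set, whose own differences were 0.29, 0.39 and -0.84, so this order is not one of Grin3a alone. By itself Grin3a 1438866_at had that order, but 1436575_at was higher in FLX in each replicate number, at 0.28, 0.05 and 0.91. Exact two-sided permutation tests gave p = 0.6 for the ratio of Grin2d, 0.8 for that of Grin3a 1438866_at and 0.6 for that of 1436575_at. Each was 0.8 after adjustment over the 3 ratios. With 3 arrays against 3 the smallest p is 0.1.

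The genes whose profile over the 6 arrays was nearest to that of a subunit were sought among 12213 other tested genes, by the root mean square distance between log2 profiles centred on their own means. For Grin2b 1457003_at these were Tnr (0.07), Slc8a3 (0.07) and Atp13a4 (0.11), where the median gene lay at 0.49. Tnr encodes the extracellular matrix protein tenascin-R and had intensities of 450, 491 and 323 in FLX replicates 1, 2 and 3, against 353, 388 and 568 in VEH replicates 1, 2 and 3. Slc8a3 encodes a sodium-calcium exchanger and had 591, 631 and 431 in FLX replicates 1, 2 and 3, against 448, 548 and 750 in VEH replicates 1, 2 and 3. Both had their highest value in VEH replicate 3 and their lowest in FLX replicate 3, as Grin2b did. This likeness follows from how they were picked.

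For Grin2d 1442328_at the nearest were Ackr2, Ppp1r16a and Serpinf2, each at a distance of 0.03 where the median gene lay at 0.48. Ackr2, an atypical chemokine receptor, had 44.4, 43.8 and 47.4 in FLX replicates 1, 2 and 3, against 43.6, 43.5 and 86.7 in VEH replicates 1, 2 and 3. All 3 shared the single high value in VEH replicate 3, and their intensities in that array ran from 86.7 to 2078. For Grin3a 1438866_at the nearest were Mog, a myelin protein gene (0.09), Kif26b, a kinesin family gene (0.10), and Ccnf, the cyclin F gene (0.10), where the median gene lay at 0.42. Distances over 6 arrays describe these libraries and carry no test. All of these genes were picked by that distance, so their shared high and low arrays are no separate result.

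The other genes of NMDA receptor signalling were taken from 5 lists, with Grin3b added, and made 61 genes, of which 52 were tested, each by its brightest probe set. With limma, 0 of 52 passed in either direction (0% of all probe sets) and 0 had an unadjusted p under 0.05, and with the replicate block 0 passed and 7 had an unadjusted p under 0.05, beside 7.95% of all probe sets tested. The log2 difference was positive for 45 of the 52, with a median of 0.16, whereas 58.0% of all 12214 genes tested were positive, with a median of 0.05. By the mean of tested probe sets per gene, 40 of the 52 were positive, with a median of 0.12, and 58.3% of all genes. Neuronal marker lists, by brightest probe sets, lay on the same side. Differences were positive in 7 of 8 pan-neuronal markers (median 0.16), 5 of 6 layer 5 markers (0.26) and 7 of 9 interneuron markers (0.29). The same held for excitatory neuron (4 of 5, 0.16), astrocyte (6 of 10, 0.24) and oligodendrocyte markers (4 of 6, 0.05). It also held for oligodendrocyte precursor (4 of 5, 0.23), microglia (7 of 8, 0.09) and endothelial markers (2 of 3, 0.25). Pericyte and smooth muscle markers were positive in 0 of 5 (median -0.62) and leptomeningeal markers in 2 of 9 (-0.35). The part of any of these cell types in the signalling genes' differences was not tested. The 3 subunit genes were positive in 0 of 3 by their brightest probe sets, with a median of -0.06, and in 2 of 3 by the mean of tested probe sets, with a median of 0.070, so they had no settled direction.

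The co-agonist supply list held genes of the synthesis, breakdown and transport of D-serine and glycine, and also Ddo, the gene of D-aspartate oxidase. The difference was positive in 8 of 8 genes tested, with a median of 0.18, and in 7 of 8 by the mean of tested probe sets, with a median of 0.15. Srr, serine racemase, which makes D-serine, had intensities of 1810, 1553 and 3259 in FLX replicates 1, 2 and 3, against 1386, 1400 and 1930 in VEH replicates 1, 2 and 3. FLX was higher in each replicate number and the groups overlapped (log2 difference 0.43, SE 0.34, or 0.11 without the FLX replicate 3 array). By the mean of tested probe sets the log2 difference of Srr was 0.16. Gldc, a subunit of the glycine cleavage system, had 177, 235 and 742 in FLX replicates 1, 2 and 3, against 135, 135 and 414 in VEH replicates 1, 2 and 3 (log2 difference 0.68, SE 0.69). Its differences within replicate numbers were 0.40, 0.79 and 0.84, and replicate 3 was the highest array of each group. With 1 array left out the difference ran from 0.056 without FLX replicate 3 to 1.22 without VEH replicate 3. With the replicate block its SE was 0.17, with a limma adjusted p of 0.623.

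Of 6 glutamate transporter and synthesis genes tested, 5 were positive, with a median of 0.25. By the mean of tested probe sets 6 of 6 were positive, with a median of 0.13. Slc1a2, the main astrocytic glutamate transporter, had 3146, 4654 and 2261 in FLX replicates 1, 2 and 3, against 2241, 3600 and 1887 in VEH replicates 1, 2 and 3. Its log2 difference was 0.37 (SE 0.37) and positive in each replicate number, and ran from 0.11 without FLX replicate 2 to 0.64 without VEH replicate 2. By the mean of tested probe sets it was 0.11. Slc17a6, a vesicular glutamate transporter, had a log2 difference of 0.62 (SE 0.69), which was -0.07 without the VEH replicate 3 array. By the mean of tested probe sets it was 0.66.

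Scaffold and auxiliary proteins, which hold the receptor at the postsynaptic density, were positive in 9 of 11, with a median of 0.09, and in 7 of 11 by the mean of tested probe sets, with a median of 0.0096. Neto1, an auxiliary protein of kainate receptors that also associates with NMDA receptors, had 922, 669 and 1066 in FLX replicates 1, 2 and 3, against 609, 621 and 671 in VEH replicates 1, 2 and 3. Only FLX replicate 2 lay within the VEH range, and the log2 difference was 0.46 (SE 0.24; unadjusted p = 0.0999 and adjusted p = 1.00, limma). Homer1, a scaffold that links group I metabotropic glutamate receptors to the postsynaptic density, had a log2 difference of 0.19 (SE 0.20).

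Kinases, phosphatases and effectors were positive in 15 of 16, with a median of 0.20, and 10 of the 16 were higher in FLX in all 3 replicate numbers, as were 2467 of 12214 genes tested. By the mean of tested probe sets 15 of 16 were positive, with a median of 0.23. In the other lists fewer genes were higher in FLX in all 3 replicate numbers. The counts were 3 of 8 for co-agonist supply, 3 of 6 for glutamate transporters and synthesis, 3 of 11 for scaffolds and 4 of 11 for trafficking. Over all lists together it was 23 of 52. Fyn, a Src-family kinase that phosphorylates GluN2 subunits, had 3196, 2784 and 3369 in FLX replicates 1, 2 and 3, against 2629, 2770 and 2551 in VEH replicates 1, 2 and 3. It was the 1 gene of the 52 whose groups did not overlap, beside 2.55% of all probe sets in that direction (log2 difference 0.23, SE 0.18). Ppp3r1, the regulatory subunit of calcineurin, had a log2 difference of 0.28 (SE 0.22). Trafficking genes were positive in 8 of 11, with a median of 0.10, but in 5 of 11 by the mean of tested probe sets, with a median of -0.0067. Among them were Lin7a (0.24, SE 0.20) and Lin7c (0.35, SE 0.34), which encode adaptors of the complex that carries NMDA receptors along dendrites. By the mean of tested probe sets Lin7a was at 0.18 and Lin7c at 0.08. For Lin7c the differences were -0.18, 0.05 and 1.17 in replicates 1, 2 and 3, so replicate 3 set its size.

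**Figure D4:**
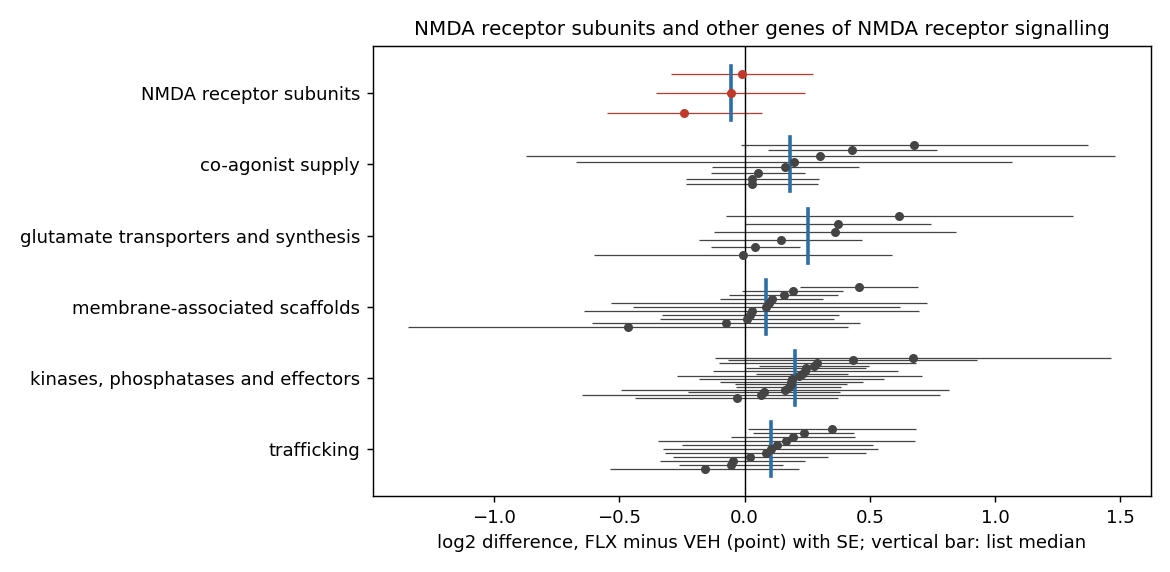
Log2 difference, FLX minus VEH, for the 3 tested subunit genes (red, brightest probe set) and the genes of 5 signalling lists (grey), with bars of 1 SE and a vertical bar at each list's median. The subunit median is -0.06 here and 0.070 by the mean of tested probe sets, and the list medians are 0.09 to 0.25 here and -0.0067 to 0.23 by that mean. The median of all genes tested is 0.05.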

How the data were processed

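The deposited table holds 1 probe set intensity per array on a linear scale. The authors amplified 15 ng of RNA in 2 cycles, hybridised it to Affymetrix mouse arrays in 1 colour and normalized the intensities with GCRMA, per the labels' protocols and the submitters' processing notes (its version was not stated). That the scale is linear follows from the values. Genes were named from the platform annotation, and only where a probe set has 1 symbol.

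The fit was made with limma 3.58.1 (R 4.3.3) on log2 intensity without a pseudocount, with treatment as the only term, two-sided, and adjusted by Benjamini-Hochberg over 22200 probe sets with a mean of 50 or more in at least 1 group. Ratios within arrays were compared by exact permutation. Intensities of different probe sets are not comparable, and the number of arrays limits the precision. A gene is represented by its brightest probe set. All subunit probe sets were named, with Grin3b, the 2 genes of each signalling list with the smallest p, and the 3 genes nearest to each tested subunit. The members and lists were chosen with earlier results of these data known.

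The labels number the replicates 1 to 3 in both groups without saying what a number marks. Deviations from the group means correlated at 0.70, 0.84 and 0.87 between arrays of the same number, which passes the limit of 0.1 set for pairing. FLX replicate 1 with VEH replicate 2 (0.64) passed it too, and VEH replicate 1 correlated better with FLX replicate 2 (0.76) than with FLX replicate 1. Deviations within a group balance out, so a replicate 3 that stands apart in both groups makes the others correlate. The limit therefore cannot tell whether replicates 1 and 2 are paired by number. The fit without the block stayed the main one, and SEs and intervals come from it unless the block is named. Alternatives were the replicate block, other filters, a pseudocount of 16, quantile normalization again, median centring, a trended robust fit, means over probe sets, and leaving out arrays. Figures were drawn with matplotlib 3.10.9.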

Additional observations from a re-analysis of the deposited data

How the results depend on the processing

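No subunit probe set (0 of 5) and no signalling gene (0 of 52) passed the adjusted threshold with limma under any alternative run, including the replicate block, which changed no call, and the adjusted p of the subunits lay between 0.555 and 1.00. Over the alternatives, the log2 differences of Grin2b 1442370_at (0.003 to 0.41) and of Grin3a 1436575_at (0.15 to 0.60) stayed positive. The alternatives reuse the same arrays, and the main intervals of both included 0, so this sets no direction for them. The log2 differences of Grin2b 1457003_at ran from -0.28 to 0.34, of Grin2d 1442328_at from -0.40 to 0.08 and of Grin3a 1438866_at from -0.24 to 0.20, and so changed sign. Grin2b 1457003_at turned positive without FLX replicate 3 (0.12), without VEH replicate 3 (0.17), without both (0.34), with the replicate block without replicate number 3 (0.34, chosen after seeing the data) and as the mean of tested probe sets (0.070), and with 1 array left out it ran from -0.22 to 0.17. Grin2d turned positive without VEH replicate 3 (0.081), without both replicate 3 arrays (0.062) and with the block without replicate number 3 (0.062). Grin3a 1438866_at turned positive without FLX replicates 1 (0.16) or 2 (0.04) or VEH replicates 2 (0.11) or 3 (0.005), as the mean of tested probe sets (0.20), and with the block without replicate number 1 (0.029) or 2 (0.16). Among signalling genes, Gldc ran from 0.056 to 1.22 and Srr from 0.11 to 0.65 with 1 array left out, Slc17a6 ran from -0.068 (without VEH replicate 3) to 1.11 with 1 array left out, and Homer1 turned to -0.088 as the mean of tested probe sets and Lin7c to -0.062 without both replicate 3 arrays. The within-array ratio of Grin3a 1438866_at to Grin2b turned to -0.56 without both replicate 3 arrays and ran from -0.35 to 0.27 with 1 array left out, below 0 without FLX or VEH replicate 3; that of 1436575_at turned to -0.17 without both and ran from 0.03 to 0.75. That of Grin2d to Grin2b ran from -0.38 to -0.002. With the replicate block the exact sign-flip p of the ratios was 0.25 for Grin2d and 1.00 for each Grin3a probe set, where 3 pairs cannot go below 0.25. The cause of these turns was not tested beyond the arrays left out. Ratios to Grin1 and of Grin2a to Grin2b were not run, for want of a probe set with 1 symbol or above the filter. Intensities near or under 50 limit what Grin2a, Grin2c and Grin3b can show.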
